A study of Mus musculus with 12 samples.

Results

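The genes described here encode the main apolipoproteins made by the liver, Apob, Apoa1, Apoa2, Apoa4, Apoa5, Apoc1, Apoc2, Apoc3 and Apoe, together with Mttp, the microsomal transfer protein that loads lipid onto apolipoprotein B. They were picked by symbol, all 10 were found among the 35275 genes of the deposited table, and all 10 passed the filter on low values. Their RNA was measured in whole liver of wild-type (WT) mice and of mice that lack PC-TP, the phosphatidylcholine transfer protein encoded by Pctp, in the whole body (labelled PCTP-/-, here Pctp-/-). Each genotype was fed chow or a methionine- and choline-deficient (MCD) diet, which made 4 groups of 3 male mice and so 12 libraries. Strain, age and time on the diet are not given for these mice in the sources used here, and the deletion was not limited to hepatocytes.

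Very low density lipoprotein (VLDL) is built in the hepatocyte around apolipoprotein B, which stays with its particle until the particle is taken up or degraded. Mttp transfers triglyceride and phospholipid to nascent apolipoprotein B in the endoplasmic reticulum, and particles that stay poor in lipid are degraded. The small exchangeable apolipoproteins of the A and C groups and apolipoprotein E move between particles and set how lipases and receptors act on them. Export of VLDL draws on phosphatidylcholine, and a lack of choline and methionine limits the synthesis of this lipid in the liver. The comparisons asked which of these genes differed in RNA level between the diets and between the genotypes.

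The level of a gene is given as FPKM, the fragments mapped to it scaled by its length and by sequencing depth. Uniquely mapped reads ranged from 30486576 to 55179468 per library. Each contrast was tested over 12466 genes by limma, a linear model of log2(FPKM + 1), and a gene was called changed at a Benjamini-Hochberg adjusted p under 0.05, with no minimum fold. Pctp itself was at 2.25, 1.21 and 2.65 FPKM in WT and at 0.566, 0.364 and 0.330 FPKM in Pctp-/- mice on chow, and at 7.90, 5.10 and 3.61 FPKM against 0.156, 0.329 and 0.293 FPKM on MCD. It was lower in all 3 Pctp-/- libraries on each diet, and this passed the test on MCD (log2 fold change -2.33, standard error 0.23, adjusted p = 0.000624) but not on chow (-1.07, standard error 0.23, adjusted p = 0.15).

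The chow and MCD libraries also differed in sequencing. Uniquely mapped reads were 77.6% to 79.4% of all reads in the chow libraries. In the MCD libraries they were 85.7% to 87.5%. The dependence of level on GC content also differed between the diets. The level relative to the mean of all 12 libraries was followed per 10 percentage points of GC in a transcript. It changed by 0.199 to 0.288 (log2) in the 6 chow libraries and by -0.268 to -0.193 in the 6 MCD libraries. Since these values are taken relative to that mean, they show a difference between the diets and not the sign of the dependence in either. Diet and this difference in the libraries cannot be told apart, so the diet effects are given below as deposited and, as an alternative chosen after seeing the data, with the trends of each library with transcript length and GC content removed. Within a diet the genotypes overlapped in the percentage of mapped reads and, on chow, in the GC trend. On MCD the GC trend was -0.217 to -0.193 in the WT libraries and -0.268 to -0.2195 in the Pctp-/- libraries, without overlap. Library 1 of WT on chow stood apart within its group, with levels that rose by 0.066 (log2) per doubling of transcript length where the other 11 libraries lay between -0.036 and 0.035.

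Of the 10 genes, 7 lie in a pair of clusters, and Apob, Apoa2 and Mttp lie elsewhere. Apoa1, Apoc3, Apoa4 and Apoa5 span 43.3 kb of chromosome 9, with Apoc3 on the minus strand and the others on the plus strand. Apoc2, Apoc4, Apoc1 and Apoe span 27.6 kb of chromosome 7, all on the minus strand. Positions are those of GENCODE M21 on GRCm38, the build that the submitters' processing notes name as mm10. The stretches upstream of the 5 genes whose level was called changed between the diets are shown because these are the genes that moved, and a reader can see in them what their promoters do and do not share. Sequences are from RefSeq (GRCm38.p6), read 5′ to 3′ on the strand of the gene, as the part of the 250 bases before the RefSeq start that lies outside annotated exons of that strand. They are chr9:46240594-46240695 (plus) for Apoa4, chr7:19677942-19678082 (minus) for Apoc2, chr12:7977427-7977647 (plus) for Apob, chr9:46228380-46228579 (plus) for Apoa1 and chr7:19699189-19699438 (minus) for Apoe, and capitals mark matches to the motifs named after them.
Apoa4: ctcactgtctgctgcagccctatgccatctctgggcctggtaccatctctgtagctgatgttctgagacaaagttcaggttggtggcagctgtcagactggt
Apoc2: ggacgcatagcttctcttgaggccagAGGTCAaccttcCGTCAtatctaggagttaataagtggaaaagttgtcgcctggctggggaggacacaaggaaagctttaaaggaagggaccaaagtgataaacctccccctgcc
Apob: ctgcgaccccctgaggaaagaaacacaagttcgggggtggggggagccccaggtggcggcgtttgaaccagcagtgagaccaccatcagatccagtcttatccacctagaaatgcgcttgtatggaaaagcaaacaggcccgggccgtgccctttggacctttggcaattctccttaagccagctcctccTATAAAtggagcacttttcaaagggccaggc
Apoa1: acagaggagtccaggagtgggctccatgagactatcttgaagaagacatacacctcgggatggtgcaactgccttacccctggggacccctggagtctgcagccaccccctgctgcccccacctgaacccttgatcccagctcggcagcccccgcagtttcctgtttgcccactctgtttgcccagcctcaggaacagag
Apoe: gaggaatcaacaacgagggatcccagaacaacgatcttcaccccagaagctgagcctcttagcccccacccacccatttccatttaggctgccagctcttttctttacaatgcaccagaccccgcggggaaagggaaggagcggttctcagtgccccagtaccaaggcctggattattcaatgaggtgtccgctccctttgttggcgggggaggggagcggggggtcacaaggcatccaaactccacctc
Each set of letters was searched on both strands of all 32851 RefSeq promoters, taken as whole windows. The stretches shown for Apoa4 (102 bases), Apoc2 (141), Apoa1 (200) and Apob (221) are shorter, so the shares are not a like comparison for them. The TATA box was searched as TATAAA, which 12.4% of these promoters held. The core of nuclear receptor sites was searched as AGGTCA and was held by 14% of them. The core of cyclic AMP response elements, TGACG, was held by 17.8%. The FOXA motif, spelled TGTTTAC, was held by 3.17% of all promoters. An HNF4 motif, CAAAGTCCA, was held by 0.384% and a C/EBP motif, TTGCGCAA, by 0.164%. Apoc2 held the nuclear receptor core from 115 to 110 bases before its start, and the cyclic AMP core, on the opposite strand, from 103 to 99 bases before it. Apob held the TATA box from 60 to 55 bases before its RefSeq start at 7977677, which lies downstream of its GENCODE start at 7977648. Of the RefSeq starts of Apoe only the most upstream is shown, and the window of another start, at 19698621, held a TATA box from 96 to 91 bases before it. The stretches of Apoa4, Apoa1 and Apoe that are shown held none of the 6, which says only that these letters are not there. That of Apoa4 runs only from 250 to 149 bases before its RefSeq start, and that of Apoa1 from 250 to 51 bases before it. The stretch of Apoc2 ends at 141 bases because Apoc4 ends just upstream of it. RefSeq promoters were found for 8 of the 10 genes, all but Apoc1 and Apoc3.

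On chow, the order of the levels was Apoe, Apoa1, Apoa2, Apoc1, Apoc3, Apoa5, Apob, Apoc2, Mttp and Apoa4 in both genotypes. In each genotype only Apoa1 and Apoa2 overlapped among neighbours in that order. Apoe was the gene with the second highest FPKM in each of the 12 libraries. The means per length on chow ran from 19284 FPKM for Apoe to 27.4 FPKM for Apoa4 in WT, and from 21419 to 26.4 FPKM in Pctp-/- mice. On MCD, Apoa4 moved from the last of the 10 places to place 6 in WT and place 8 in Pctp-/- mice, the mean of Apoa2 stood above that of Apoa1, and Mttp became the lowest. In WT on MCD the ranges of Apoa2 and Apoa1, of Apoa4 and Apoa5 and of Apoc2 and Apob overlapped, and in Pctp-/- mice those of Apob and Apoa4 and of Apoa4 and Apoc2. The 10 genes together made up 8.26% to 9.31% of summed FPKM in WT and 8.98% to 9.58% in Pctp-/- mice on chow. On MCD this share was 7.78% to 7.89% in WT and 7.55% to 7.75% in Pctp-/- mice, below every chow library. The share of Alb (albumin) was 5.46% to 6.13% over the chow libraries. On MCD it was 7.84% to 8.69% in WT and 10.7% to 11.7% in Pctp-/- mice, without overlap.

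**Figure D1:**
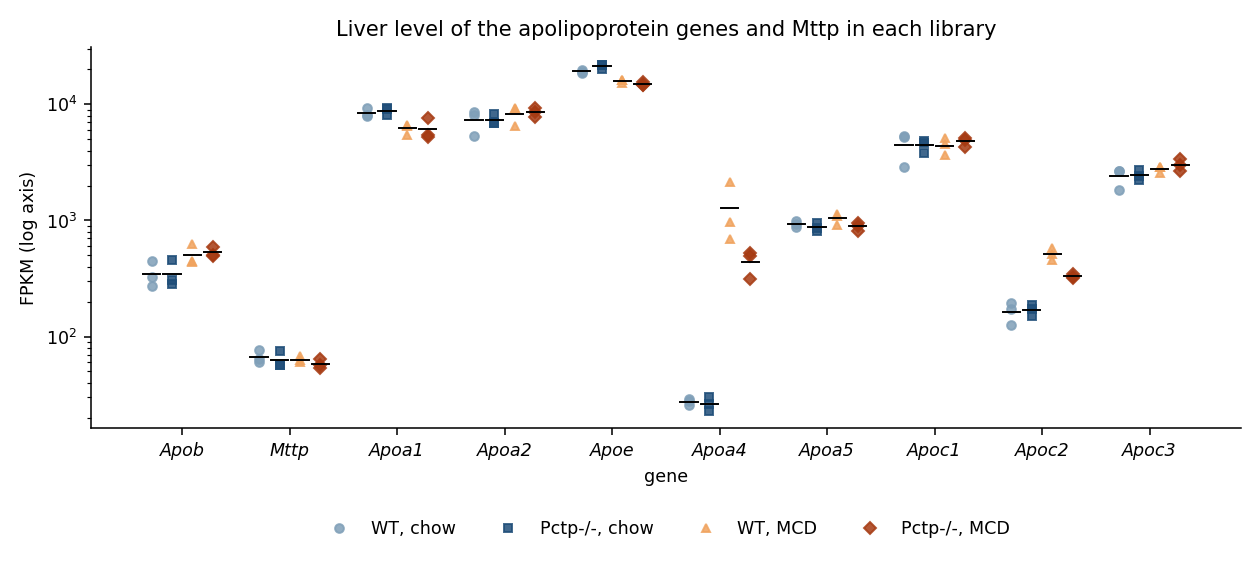
FPKM on a log axis (y) of each gene (x) in the 12 libraries, with a symbol per library in the colour of its group and a bar at the group mean (n = 3). Apoa4 lies between 22.8 and 30.4 FPKM in the 6 chow libraries and between 310 and 2163 FPKM in the 6 MCD libraries.

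The MCD diet changed 5 of the 10 genes in WT mice, against 57% of all genes tested, and 5 of the 10 in Pctp-/- mice, against 50.3%. The same 5 were called in both genotypes: Apoa4, Apoc2 and Apob rose (34.5% of all genes tested rose in WT and 26% in Pctp-/- mice) and Apoa1 and Apoe fell (22.5% and 24.4%). The diets did not overlap for 4 of the 10 in WT, against 63.7% of all genes tested, and for 5 of the 10 in Pctp-/- mice, against 59.7%. The median log2 fold change of the 10 was 0.18 in WT beside 0.11 over all genes tested, and 0.17 in Pctp-/- mice beside 0.038. With the length and GC trends removed, 5 genes were higher and none was lower in each genotype, where 51.3% of all genes were called in WT (31.8% higher) and 41.5% in Pctp-/- mice (21% higher). These were Apoa4, Apoc2, Apob, Apoa5 and Apoc3, so that the rises of Apoa4, Apoc2 and Apob held in both fits and the falls of Apoa1 and Apoe were lost. The rise of 0.11 in the median of all genes in WT was 0.027 after median-of-ratios scaling of the libraries. In whole-liver RNA, a change in the number of cells of a type and a change in RNA per cell cannot be told apart.

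**Figure D2:**
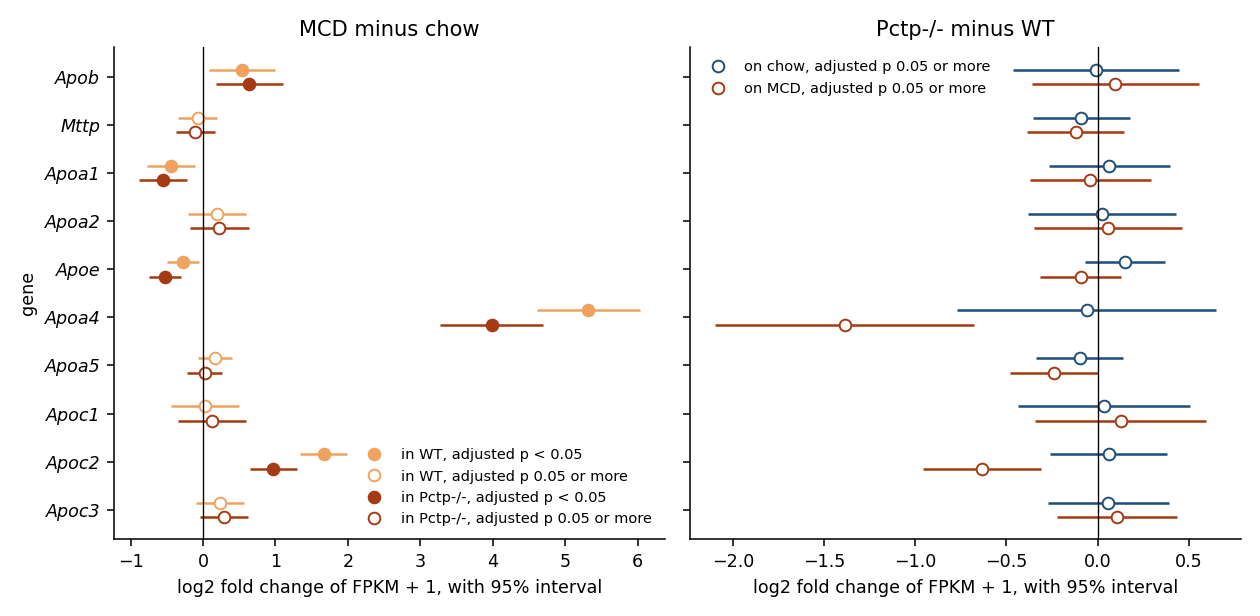
Log2 fold changes of FPKM + 1 (x) with 95% intervals for each gene (y), for MCD minus chow in each genotype on the left and for Pctp-/- minus WT on each diet on the right. Filled symbols passed an adjusted p of 0.05: Apob, Apoa1, Apoe, Apoa4 and Apoc2 for the diet in both genotypes, and no gene for the genotype on either diet.

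Apob, on chromosome 12 from 7977648 to 8016835 (plus strand), encodes the structural protein of VLDL. Its level in WT mice was 445, 274 and 326 FPKM on chow and 622, 444 and 441 FPKM on MCD. In Pctp-/- mice it was 455, 306 and 283 FPKM on chow and 509, 593 and 496 FPKM on MCD. The WT groups overlapped, since library 1 on chow lay just above the lower MCD libraries, whereas every MCD library of Pctp-/- mice lay above the chow libraries. Apob rose 1.45-fold in WT (log2 fold change 0.54, standard error 0.21, adjusted p = 0.0443) and 1.56-fold in Pctp-/- mice (0.64, standard error 0.21, adjusted p = 0.0228). The call in WT was lost without library 2 of WT on chow (0.38, adjusted p = 0.178), without library 3 of WT on chow (0.50, adjusted p = 0.105) and without library 1 of WT on MCD (0.37, adjusted p = 0.173), and also without library 2 of Pctp-/- mice on chow or any one of the Pctp-/- MCD libraries, where the fold change stayed at 0.54 and the adjusted p was 0.0505 to 0.0553. In Pctp-/- mice it was lost without library 2 (0.57, adjusted p = 0.0785) or library 3 on chow (0.51, adjusted p = 0.0888) or library 2 on MCD (0.56, adjusted p = 0.0785). With the length and GC trends removed the rise was 0.65 in WT (adjusted p = 0.00317) and 0.54 in Pctp-/- mice (adjusted p = 0.0124).

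Mttp, on chromosome 3 from 138089854 to 138144968 (minus strand), passed the test in no comparison. It was at 75.9, 60.5 and 64.5 FPKM in WT and 74.8, 57.3 and 57.4 FPKM in Pctp-/- mice on chow. On MCD it was at 62.4, 60.1 and 67.4 FPKM in WT and 57.2, 63.9 and 53.7 FPKM in Pctp-/- mice. All 4 groups overlapped, and library 1 was the highest on chow in each genotype. The log2 fold change with MCD was -0.075 in WT (95% interval -0.34 to 0.19, adjusted p = 0.62) and -0.11 in Pctp-/- mice (-0.37 to 0.16, adjusted p = 0.493). With the length and GC trends removed the values were -0.23 (adjusted p = 0.101) and -0.29 (adjusted p = 0.0504). Per 100 FPKM of Mttp, Apob was at 515 ± 67.2 (SD, n = 3) on chow and 797 ± 178 on MCD in WT, and at 545 ± 58.3 and 914 ± 21.4 in Pctp-/- mice. Mttp overlaps Trmt10a on the opposite strand, and whether the counting used strand is not given in the sources used here.

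Apoa1 and Apoa2 encode the structural proteins of high density lipoprotein (HDL). Apoa1, on chromosome 9 from 46228580 to 46230466 (plus strand), was at 7910, 9389 and 8076 FPKM in WT on chow and at 6472, 5492 and 6681 FPKM on MCD. In Pctp-/- mice it was at 8056, 9281 and 9193 FPKM on chow and at 5417, 7649 and 5272 FPKM on MCD. The diets did not overlap in either genotype, and library 2 of Pctp-/- mice on MCD was the nearest to the chow range. Apoa1 fell in WT (log2 fold change -0.45, standard error 0.15, adjusted p = 0.0249) and in Pctp-/- mice (-0.55, standard error 0.15, adjusted p = 0.00979). With the length and GC trends removed it was no longer called, at -0.26 in WT (adjusted p = 0.149) and -0.28 in Pctp-/- mice (adjusted p = 0.148). The call in WT was also lost without library 2 of WT on chow (-0.37, adjusted p = 0.0943) or on MCD (-0.36, adjusted p = 0.0962). Apoa2 ranged from 5395 to 8560 FPKM over the 6 chow libraries and from 6581 to 9343 FPKM over the 6 MCD libraries, with overlap in both genotypes, and was not called as deposited (log2 fold change 0.19, 95% interval -0.21 to 0.60 in WT, and 0.23, -0.18 to 0.63 in Pctp-/- mice). After quantile normalization it was called lower in WT (-0.24, adjusted p = 0.0488). Per 100 FPKM of Apoa2, Apoa1 was at 94.3 to 147 on chow and 58.8 to 98.3 on MCD in WT, and at 112 to 133 and 58.0 to 98.5 in Pctp-/- mice.

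Apoe, on chromosome 7 from 19696109 to 19699188 (minus strand), encodes the ligand by which remnants bind their receptors, and is made by hepatocytes and by macrophages. It was at 18739, 19990 and 19125 FPKM in WT on chow and at 16101, 16303 and 15311 FPKM on MCD. In Pctp-/- mice it was at 20284, 21999 and 21974 FPKM on chow and at 15522, 14573 and 14633 FPKM on MCD. Every MCD library lay below every chow library, and the spread within groups was small, 0.054 (SD of log2 values), less than in all but 0.545% of the genes tested. As deposited, Apoe fell with MCD by 0.28 (log2, standard error 0.10, adjusted p = 0.0337) in WT and by 0.52 (standard error 0.10, adjusted p = 0.00114) in Pctp-/- mice. Its transcript had the highest GC content of the 10, 59.5%, and with the length and GC trends removed the fold change was 0.11 in WT (adjusted p = 0.223) and -0.012 in Pctp-/- mice (adjusted p = 0.917), so the sign turned in WT and the call was lost in both. The call in WT was lost, at -0.30 to -0.25 with an adjusted p of 0.0542 to 0.0956, without any one of the Pctp-/- chow libraries, library 2 or 3 of WT on chow, or library 2 or 3 of WT on MCD.

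Markers of macrophages and Kupffer cells moved with the diet beside Apoe. The sum of their 11 genes was 76.1 to 128 FPKM in WT chow libraries and 307 to 623 FPKM in WT MCD libraries. In Pctp-/- mice it was 67.1 to 179 FPKM and 334 to 422 FPKM. Of the 11, 10 rose in WT and 6 in Pctp-/- mice, beside 34.5% and 26% of all genes tested. Among them were Lyz2 (log2 fold change 3.26 and 3.04) and Gpnmb (4.67 and 5.45). Other markers of the list moved little in Pctp-/- mice. There Clec4f averaged 41.3 FPKM on chow and 43.5 FPKM on MCD, Timd4 2.96 and 2.98 FPKM, and Csf1r 9.37 and 9.62 FPKM. The part of these cells in the values of Apoe was not tested. The 7 hepatocyte markers measured went both ways. In WT 2 rose, Alb (log2 fold change 0.66) and Ahsg (0.75), and 2 fell, Cps1 (-0.42) and Serpinc1 (-0.43). The shares of all genes tested were 34.5% and 22.5%. In Pctp-/- mice Alb (1.02) and Ahsg (0.86) rose and Serpinc1 (-0.39) fell, beside 26% and 24.4%. The median of the list was -0.21 in WT and 0.0072 in Pctp-/- mice. Their sum was 40795 to 46168 FPKM over the chow libraries. On MCD it was 59579 to 67141 FPKM in WT and 74639 to 81963 FPKM in Pctp-/- mice. Most of it was Alb.

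**Figure D3:**
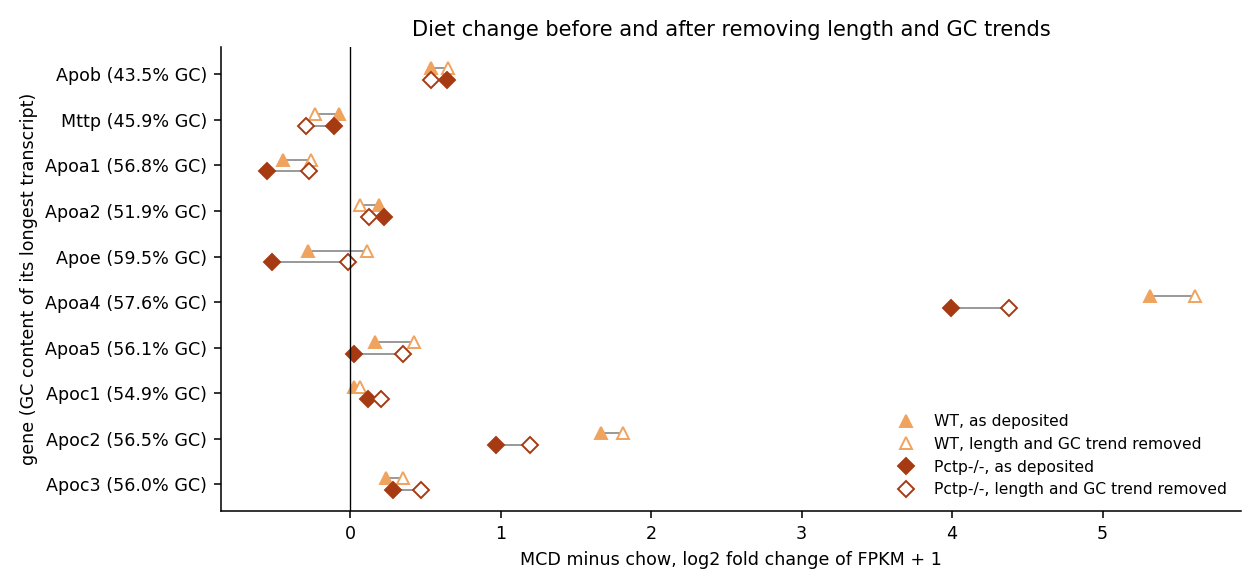
MCD minus chow as log2 fold change of FPKM + 1 (x) for each gene (y, with the GC content of its longest transcript), in WT (triangles) and Pctp-/- mice (diamonds), as deposited (filled) and with the length and GC trends of each library removed (open). Apoe moves from -0.28 to 0.11 in WT and from -0.52 to -0.012 in Pctp-/- mice, whereas Apoa4 and Apoc2 are at 0.97 or above throughout.

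Apoa4 showed the largest change of the 10. It encodes an apolipoprotein of chylomicrons and HDL that is known to be made mainly by the small intestine, and in mice also by the liver. On chromosome 9 from 46240696 to 46243459 (plus strand), it was at 28.8, 25.5 and 28.0 FPKM in WT and 30.4, 22.8 and 26.1 FPKM in Pctp-/- mice on chow. On MCD it was at 2163, 965 and 693 FPKM in WT and at 310, 498 and 520 FPKM in Pctp-/- mice. Every MCD library lay at least 10 times above every chow library, and on MCD every Pctp-/- library lay below every WT library. The rise was 39.9-fold in WT (log2 fold change 5.32, 95% interval 4.61 to 6.03, adjusted p = 1.84e-07) and 15.9-fold in Pctp-/- mice (3.99, 3.28 to 4.70, adjusted p = 2e-06). Apoa4 went from rank 1857 to 2473 among all genes of a chow library to rank 27 to 77 in the WT MCD libraries and rank 107 to 207 in the Pctp-/- MCD libraries. The call held in all 23 refits with another setting or without a library in each genotype, with values from 4.85 to 5.67 in WT and from 3.85 to 4.38 in Pctp-/- mice. It was the gene of widest spread within groups, 0.48 (SD of log2 values), more than 97.1% of the genes tested.

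The neighbours of Apoa4 on chromosome 9 did not rise with it in the values as deposited: Apoa1 fell, and Apoc3 and Apoa5 were not called. Per 100 FPKM of Apoa1 in the same library, Apoa4 was at 0.327 ± 0.049 (SD, n = 3) in WT and 0.302 ± 0.068 in Pctp-/- mice on chow, and at 20.5 ± 11.8 and 7.37 ± 2.20 on MCD. Apoa5, which encodes an activator of triglyceride clearance by lipoprotein lipase, was at 876 to 989 FPKM in WT and 808 to 959 FPKM in Pctp-/- mice on chow, and at 918 to 1144 and 817 to 950 FPKM on MCD. The groups overlapped, and Apoa5 was not called (log2 fold change 0.17, 95% interval -0.072 to 0.41 in WT, and 0.026, -0.21 to 0.27 in Pctp-/- mice), but with the length and GC trends removed it was higher on MCD, by 0.42 (adjusted p = 0.00472) and 0.35 (adjusted p = 0.0169), and it was also called after quantile normalization, by 0.47 (adjusted p = 0.00165) and 0.33 (adjusted p = 0.0144). Apoa4 overlaps Gm47528 and Gm10680 on the opposite strand, and Apoa5 overlaps Gm47544.

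**Figure D4:**
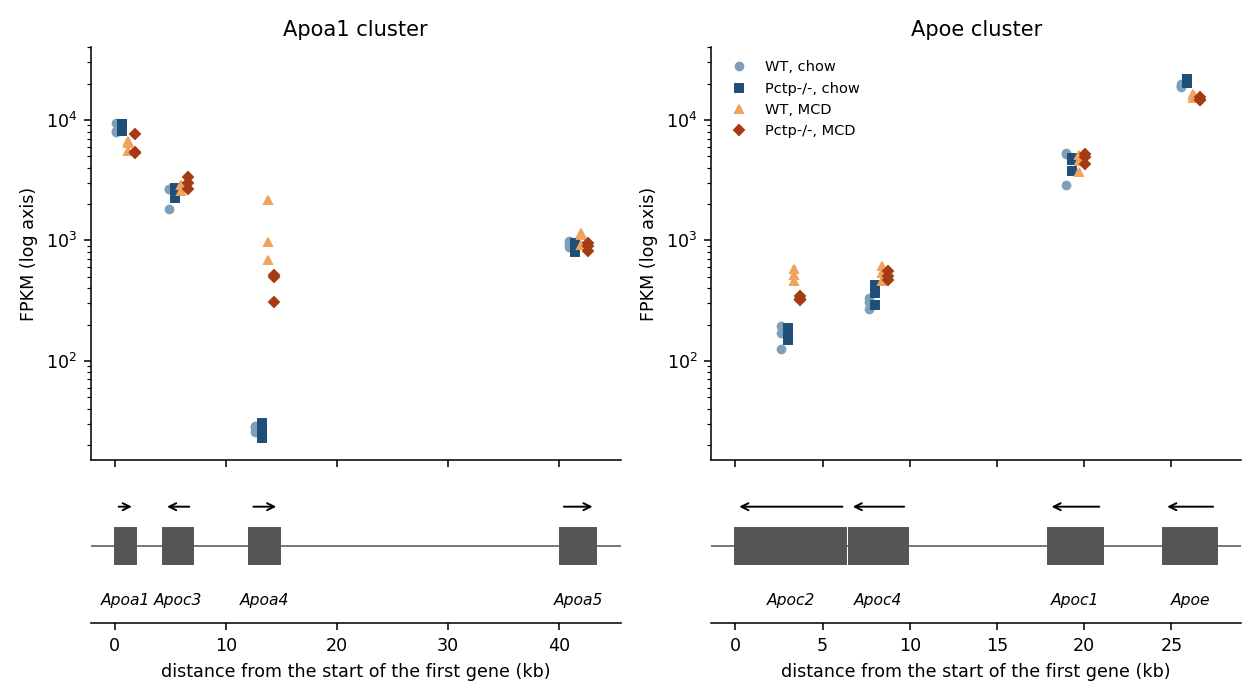
FPKM on a log axis (upper y) of the genes of the chromosome 9 cluster (left) and the chromosome 7 cluster (right) in each library, drawn above a map of the genes to scale (x, distance in kb from the start of the first gene), with arrows in the direction of transcription. In the left cluster Apoa4 alone rises by more than 10 times on MCD between Apoc3 and Apoa5; in the right cluster Apoc2 and Apoc4 rise beside Apoc1 and Apoe.

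Genes of intestinal epithelium were measured beside Apoa4. Of the 6 in that list, Cdx1 was listed at 0 in all 12 libraries, Cdx2 was above 0 in 1 library (0.066 FPKM), and Muc2 was at most 0.132 FPKM, and these 3 did not pass the filter. The other 3 rose on MCD in both genotypes, beside 34.5% of all genes tested in WT and 26% in Pctp-/- mice. Fabp2, an intestinal fatty acid binding protein, was at 31.5 to 49.9 FPKM over the chow libraries and 105 to 175 FPKM over the MCD libraries, and Vil1, an actin-binding protein of the brush border, was at no more than 0.12 FPKM on chow and at 3.60 to 7.31 FPKM on MCD. The summed level of the list was 35.2 to 50.9 FPKM in WT and 32.7 to 42.5 FPKM in Pctp-/- mice on chow, and 153 to 182 and 113 to 144 FPKM on MCD. The 3 genes whose levels most resembled Apoa4 over the 12 libraries, outside the 10, were Atp6v1b2 (Pearson r = 0.995 of log2 values, n = 12), Smpd3 (r = 0.993) and Snx6 (r = 0.992), all low on chow and high on MCD. The 12 points share the difference between the diets and between their libraries.

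Of the C apolipoproteins, which govern how lipoprotein lipase acts on triglyceride-rich particles, Apoc2 changed with the diet. Apoc2, the activator of that enzyme, lies on chromosome 7 from 19671579 to 19677941 (minus strand). It was at 126, 171 and 195 FPKM in WT and 171, 150 and 187 FPKM in Pctp-/- mice on chow. On MCD it was at 583, 513 and 456 FPKM in WT and at 328, 345 and 321 FPKM in Pctp-/- mice. The diets did not overlap in either genotype, and on MCD every Pctp-/- library lay below every WT library. The rise was 3.17-fold in WT (log2 fold change 1.67, standard error 0.15, adjusted p = 2.86e-06) and 1.96-fold in Pctp-/- mice (0.97, standard error 0.15, adjusted p = 0.000211). The call held in all 23 such refits in each genotype, with values from 1.49 to 1.81 in WT and from 0.89 to 1.19 in Pctp-/- mice. The gene model Gm44805 spans Apoc2 and Apoc4 on the same strand, and how the counting shared reads between these models is not given in the sources used here, so the level of Apoc2 is uncertain to that extent. The nearest patterns over the 12 libraries were those of S100a10 (r = 0.987), Pole3 (r = 0.985) and Tmem120a (r = 0.982). Apob was most like Reln (r = 0.970), Rdx (r = 0.964) and Pitrm1 (r = 0.958).

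Apoc1 and Apoc3 were not called as deposited. Apoc1, which is known to hold back uptake and lipolysis of VLDL, ranged from 2884 to 5318 FPKM in WT and 3788 to 4840 FPKM in Pctp-/- mice on chow, and from 3662 to 5097 and 4310 to 5174 FPKM on MCD. Its log2 fold change with MCD was 0.028 (95% interval -0.44 to 0.50) in WT and 0.12 (-0.35 to 0.59) in Pctp-/- mice. Apoc3, an inhibitor of lipoprotein lipase, ranged from 1833 to 2683 FPKM in WT and 2252 to 2720 FPKM in Pctp-/- mice on chow, and from 2591 to 2900 and 2660 to 3362 FPKM on MCD. The groups of both genes overlapped. The log2 fold change of Apoc3 was 0.24 (-0.092 to 0.57) in WT and 0.28 (-0.047 to 0.62) in Pctp-/- mice, and with the length and GC trends removed it was called, at 0.35 (adjusted p = 0.0238) and 0.47 (adjusted p = 0.00674). Per 100 FPKM of Apoc3, its counterpart Apoc2 was at 6.85 ± 0.429 (SD, n = 3) in WT and 6.85 ± 0.186 in Pctp-/- mice on chow, and at 18.7 ± 3.48 and 11.1 ± 1.72 on MCD. The low ends of Apoc1, Apoc2, Apoc3 and Apoa2 in WT on chow were all library 1, the library with the length trend. Their transcripts are among the shortest of the 10, at 532, 727, 709 and 518 bases. Library 1 was also the lowest there for Apoa1, Apoa5 and Apoe, at 1035, 2515 and 1408 bases, and the highest for Apoa4, Apob and Mttp. The part of the length trend in these values was not tested.

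Between the genotypes, none of the 10 genes was called on chow, where 0.136% of all genes tested were, and none on MCD, where 0.818% were (limma). At an unadjusted p under 0.05, 0 of the 10 passed on chow beside 6.98% of all genes, and 2 of the 10 on MCD, both lower in Pctp-/- mice, beside 16.3% of all genes (13% lower). On chow the groups of 1 gene did not overlap, against 10.6% of all genes tested (5.17% higher). This was Apoe, higher in the 3 Pctp-/- libraries (log2 fold change 0.15, 95% interval -0.070 to 0.37, adjusted p = 0.86). The other 9 had log2 fold changes from -0.098 to 0.066, with intervals between -0.77 and 0.65.

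On MCD the groups of 2 genes did not overlap, against 26.6% of all genes tested (21.1% lower). These were Apoa4, at 443 FPKM on average in Pctp-/- and 1273 FPKM in WT mice (log2 fold change -1.39, standard error 0.33, adjusted p = 0.0811), and Apoc2, at 331 against 517 FPKM (-0.63, standard error 0.15, adjusted p = 0.0804). Neither passed the adjusted threshold. For Apoa4 the value was -0.92 (adjusted p = 0.115) without library 1 of WT on MCD and -1.74 (adjusted p = 0.017) without library 3 of WT on MCD. For Apoc2 it was -0.72 to -0.54 with any library left out. It was called (-0.63, adjusted p = 0.0312) without library 1 of WT on chow, which is not in this comparison. In the 11 other settings, among them removal of the length and GC trends, Apoa4 lay between -1.40 and -1.28 and Apoc2 between -0.66 and -0.53. Neither was called in any of these settings. The other 8 genes had log2 fold changes from -0.24 to 0.13, with intervals between -0.48 and 0.60, and the median over all genes tested was -0.093. Library 1 of WT on MCD, the highest in Apoa4 and Apoc2, was the highest of the WT MCD libraries in 6 of the 11 macrophage and Kupffer cell markers, among them Cd68 (43.1 against 16.5 and 17.9 FPKM) and Gpnmb (69.9 against 14.2 and 16.5 FPKM). It was the lowest in 3, Clec4f (49.5 against 55.3 and 96.2 FPKM), Marco and Timd4, and between the others in Vsig4 and Cd5l. The part of these genes in the values was not tested.

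The difference of the diet effects, which asks whether MCD acted on a gene differently in the genotypes, was called for none of the 10 and for 0.0963% of all genes tested. At an unadjusted p under 0.05, 2 of the 10 passed, beside 15.1% of all genes (11.2% with a negative difference). The difference was -1.33 (log2, 95% interval -2.33 to -0.32, adjusted p = 0.204) for Apoa4 and -0.69 (-1.15 to -0.24, adjusted p = 0.16) for Apoc2, and neither difference passed the adjusted threshold. The other 8 had differences from -0.24 to 0.10, with intervals between -0.57 and 0.76. These comparisons share libraries with those given before and are not separate evidence.

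Other genes of the pathway were taken from 5 lists, 89 genes in all, of which 83 passed the filter. With MCD, 56 of the 83 were called in WT (27 higher and 29 lower), beside 57% of all genes tested. In Pctp-/- mice 51 were called (24 higher and 27 lower), beside 50.3%. Over all genes of known length, 5170 of 7075 calls in WT were still made in the same direction with the length and GC trends removed. In Pctp-/- mice 3919 of 6249 were. The lists below are to be read beside these shares. Between the genotypes on chow, on MCD and for the difference of the diet effects none was called (limma), beside 0.136%, 0.818% and 0.0963% of all genes tested. At an unadjusted p under 0.05 there were 11 on chow, 16 on MCD and 17 for the difference. The shares of all genes tested were 6.98%, 16.3% and 15.1%.

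**Figure D5:**
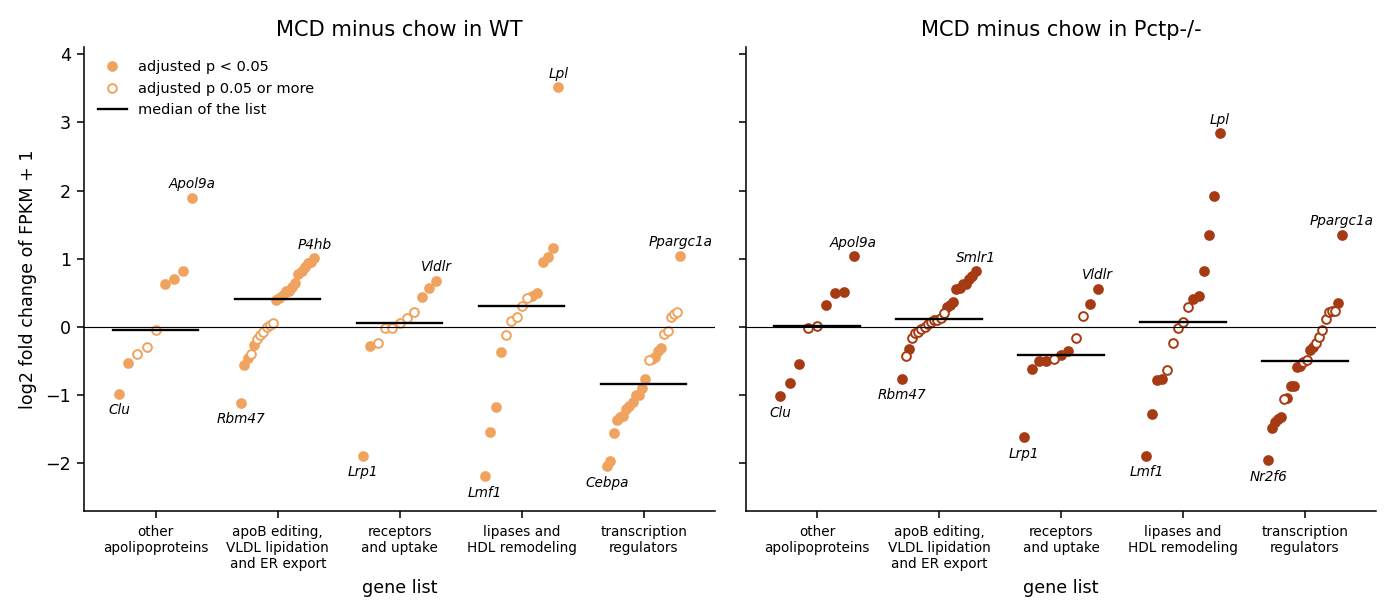
Log2 fold change of FPKM + 1 (y) for MCD minus chow in WT (left) and Pctp-/- mice (right) for the genes of 5 lists (x), each point a gene, filled where the adjusted p was under 0.05, with a bar at the median of the list. The median of the regulators, as deposited, is -0.83 in WT and -0.50 in Pctp-/- mice, the lowest of the 5 lists. Lpl is the highest point in both panels.

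Among 9 measured apolipoproteins outside the 10, 4 rose and 2 fell in WT, beside 34.5% and 22.5% of all genes tested. In Pctp-/- mice 4 rose and 3 fell, beside 26% and 24.4%. Clu, which encodes the HDL-associated chaperone clusterin, was at 779 to 915 FPKM in WT on chow and 349 to 638 FPKM on MCD (log2 fold change -0.98, adjusted p = 0.000627) and fell in Pctp-/- mice too (-1.01, adjusted p = 0.000607). Apon fell by 0.53 and 0.54. Apol9a rose by 1.89 in WT and 1.04 in Pctp-/- mice, Apol7a by 0.71 and 0.51, and Apoc4, the neighbour of Apoc2, by 0.82 and 0.50. Apol9b, named after its values were seen, went the other way. Its mean was 58.5 FPKM on chow and 44.4 FPKM on MCD in WT, and 76.0 and 44.1 FPKM in Pctp-/- mice. How the counting assigned reads between Apol9a and Apol9b is not given in the sources used here. With the length and GC trends removed, 6 of the 6 calls in WT and 6 of the 7 in Pctp-/- mice were still made in the same direction, but Apoc4 was not among those of Pctp-/- mice (0.33, adjusted p = 0.0718).

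The list of apolipoprotein B mRNA editing, VLDL lipidation and export from the endoplasmic reticulum held 24 genes. In WT 13 rose and 4 fell, beside 34.5% and 22.5% of all genes tested. In Pctp-/- mice 10 rose and 2 fell, beside 26% and 24.4%. The median log2 fold change of the list was 0.41 in WT and 0.12 in Pctp-/- mice, beside 0.11 and 0.038 over all genes tested. P4hb, protein disulfide isomerase and the partner subunit of Mttp in the transfer complex, was at 339 to 350 FPKM in WT on chow and 643 to 739 FPKM on MCD (log2 fold change 1.01, adjusted p = 1.04e-06), and at 374 to 384 and 538 to 576 FPKM in Pctp-/- mice (0.56, adjusted p = 0.000121), while Mttp itself was not called. Cideb, which is known to take part in VLDL lipidation, rose by 0.96 and 0.75, Syncrip by 0.94 and 0.71 and Smlr1 by 0.77 and 0.82. Rbm47, a cofactor of the enzyme that edits apolipoprotein B mRNA, fell by 1.11 and 0.76. A1cf, another such cofactor, and Mia3, an export receptor, fell in WT by 0.46 and 0.57 and were at -0.034 and -0.077 in Pctp-/- mice. Sar1b, a GTPase of the vesicle coat, fell by 0.33 in Pctp-/- mice and was at -0.18 in WT as deposited. With the length and GC trends removed Sar1b was called lower in both genotypes. It was at -0.63 in WT (adjusted p = 1.3e-05) and -0.76 in Pctp-/- mice (adjusted p = 4.19e-06). With the length and GC trends removed, 15 of the 17 calls in WT and 9 of the 12 in Pctp-/- mice were still made in the same direction.

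Of 11 measured genes for lipoprotein receptors and uptake, 3 rose and 2 fell in WT, beside 34.5% and 22.5% of all genes tested. In Pctp-/- mice 2 rose and 6 fell, beside 26% and 24.4%. Lrp1, a receptor for remnants that carry Apoe, was at 112 to 182 FPKM over the chow libraries and 33.8 to 48.1 FPKM over the MCD libraries (log2 fold change -1.89 in WT and -1.62 in Pctp-/- mice). The fall was smaller with the length and GC trends removed, at -1.06 (adjusted p = 3.72e-06) and -0.93 (adjusted p = 1.57e-05), but still called. Sdc1, a heparan sulfate proteoglycan that binds remnants, was at -0.016 in WT and fell by 0.61 in Pctp-/- mice. Vldlr rose by 0.68 in WT and 0.56 in Pctp-/- mice, and Sorl1 by 0.44 and 0.34. With the trends removed, 5 of the 5 calls in WT but 3 of the 8 in Pctp-/- mice were still made in the same direction. In Pctp-/- mice Sdc1 (-0.33, adjusted p = 0.0552) and Vldlr (0.38, adjusted p = 0.102) were no longer called, and Lrp1 and Sorl1 were.

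Of 15 genes for lipases and HDL remodeling, 6 rose and 4 fell in each genotype. Of all genes tested, 34.5% rose and 22.5% fell in WT, and 26% rose and 24.4% fell in Pctp-/- mice. Lpl, lipoprotein lipase, the enzyme that Apoc2 activates, was at 2.19 to 7.17 FPKM over the chow libraries and 25.2 to 66.8 FPKM over the MCD libraries (log2 fold change 3.52, adjusted p = 3.36e-06 in WT and 2.84, adjusted p = 2.29e-05 in Pctp-/- mice). Angptl8, which is known to restrain this enzyme, rose by 1.03 in WT and by 1.91 in Pctp-/- mice. On chow it was at 110 to 127 FPKM in WT and 47.5 to 67.4 FPKM in Pctp-/- mice. The genotypes overlapped on MCD, at 160 to 300 FPKM in WT and 138 to 271 FPKM in Pctp-/- mice. Lmf1, a chaperone that lipases need to mature, fell by 2.19 in WT and 1.89 in Pctp-/- mice, Lipc, hepatic lipase, by 1.54 and 1.28, and Lcat, which esterifies HDL cholesterol with Apoa1 as its activator, by 1.18 and 0.77. With the trends removed, 8 of the 10 calls in each genotype were still made in the same direction, and those of Lpl, Angptl8, Lmf1, Lipc and Lcat were among them.

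Of 24 measured transcription regulators of apolipoprotein genes, 1 rose and 17 fell in WT and 2 rose and 12 fell in Pctp-/- mice, beside 22.5% and 24.4% of all genes tested that fell. Hnf4a, the nuclear receptor that drives many apolipoprotein genes and Mttp, was at 178 to 250 FPKM over the chow libraries and 96.2 to 117 FPKM over the MCD libraries (log2 fold change -1.10 in WT and -0.87 in Pctp-/- mice). Cebpa fell by 2.04 and 1.48, Foxa1 by 1.96 and 1.04, Foxa3 by 1.32 and 1.39 and Nr2f6 by 1.37 and 1.96. Foxa2 fell by 1.55 in WT and was at -0.52 in Pctp-/- mice. Ppargc1a, a coactivator of these receptors, rose by 1.04 and 1.35, and Nr1h4, the bile acid receptor, rose by 0.35 in Pctp-/- mice and was at 0.19 in WT. The transcripts of this list are rich in GC, with a median of 56.4% beside 49.7% over the genes tested. With the trends removed, 1 was higher and 10 were lower in WT and 2 were higher and 8 lower in Pctp-/- mice. Of all 12401 genes in that fit, 2409 were lower in WT and 2540 in Pctp-/- mice. Of the calls as deposited, 11 of 18 in WT and 9 of 14 in Pctp-/- mice were still made in the same direction. The median of the list with the trends removed was -0.41 in WT and -0.15 in Pctp-/- mice. Nr1h4 was no longer called in Pctp-/- mice (0.14, adjusted p = 0.331). The 2 higher genes there were Ppargc1a (1.08) and Nr1d1 (0.61, adjusted p = 0.0403), named after its value was seen. In WT Nr1d1 was called lower with the trends removed (-0.996, adjusted p = 0.00258). Its level on chow was 78.3 to 105 FPKM in WT and 31.5 to 49.2 FPKM in Pctp-/- mice. On MCD it was 27.2 to 48.5 FPKM in WT and 40.1 to 59.5 FPKM in Pctp-/- mice, where the diets overlapped. Hnf4a stayed called in both genotypes (-0.88 and -0.64), as did Cebpa (-1.34 and -0.65) and Foxa3 (-1.20 and -1.20). Foxa1 was still called in WT (-1.78) but not in Pctp-/- mice (-0.82, adjusted p = 0.0701). Nr2f6 was still called in Pctp-/- mice (-0.70) but not in WT (-0.31, adjusted p = 0.179). Levels of RNA for these factors do not measure their activity.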

How the data were processed

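The authors deposited FPKM values per gene for 12 liver libraries, listed by Ensembl identifier, and a table of read and mapping statistics, from which depth and percentages of mapped reads were taken. Sequencing was by Novogene. The submitters' processing notes name the build mm10, and the aligner, counter and annotation are not given in the sources used here. The members and gene lists were chosen with earlier results of these data known. Symbols, positions, transcript length and GC content (longest transcript) came from GENCODE M21, which held 34490 of the 35275 identifiers, and a length was found for 12401 of the 12466 genes tested.

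Groups and replicate numbers came from the labels. Values were taken as log2(FPKM + 1) for genes with a mean of at least 0.5 FPKM. The model had 1 mean per group over all 12 libraries and was run in limma (version 3.58.1, R 4.3.3) with its trend option, p-values were adjusted by Benjamini-Hochberg over all genes tested, and the script was tested on simulated data. A fold change on this scale understates that of genes of low FPKM. FPKM is not a count, so no count test was run. With 3 against 3 libraries no exact permutation p can be below 0.1.

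Named from the lists were, per genotype, up to 3 of the largest rises and 3 of the largest falls with MCD among called genes whose groups did not overlap, and any gene called between genotypes, except for genes that are not reported here. The 3 genes most like a member were those of highest Pearson r among genes tested. A gene named in 1 genotype is given in both, and Hnf4a was chosen after its values were seen. Of the marker lists, defining markers are given. Alternatives were the pseudocount, the filter, the scaling, a fit on the compared libraries alone, a block for replicate number, limma's trend and robust options and each library left out. Removal of each library's quadratic trend with log2 transcript length and GC content was added after seeing the data. Figures used matplotlib version 3.10.9.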

Additional observations from a re-analysis of the deposited data

How the results depend on the processing

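For MCD in WT, the count of called members depended on the libraries and settings. The 5 of the 10 became 2 with no filter on low values, with only the libraries of the comparison and with a minimum absolute log2 fold change of 1, and 4 after median-of-ratios or common-total scaling. It lay between 2 and 5 with a library left out and was lower for 11 of the 12, at 2 without library 2 of WT on chow and at 3 without library 3 of WT on chow, library 2 of WT on MCD or library 2 of Pctp-/- mice on chow. For MCD in Pctp-/- mice, 5 became 2 with no filter and 1 with the minimum fold change, and lay between 4 and 6 with a library left out. The count between genotypes on MCD lay between 0 and 1. With no filter, Apob, Apoa1 and Apoe were not called in either genotype, and with only the compared libraries they were not called in WT. The causes were not tested. A replicate block, for numbers that name different mice (correlations of same-numbered libraries -0.097 to 0.225), left each of the 5 counts as it was, at 0, 0, 5, 5 and 0.

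Some signs turned. Apoe with MCD in WT was 0.11 with the length and GC trends removed. Quantile normalization gave -0.24 for Apoa2 in WT, which passed the test (adjusted p = 0.0488), and -0.067 and -0.13 for Apoc3 in WT and Pctp-/- mice, and it fixes Apoe at 0 because its rank did not vary. Apoc1 in WT was -0.079 after median-of-ratios scaling and -0.071 after scaling to a common total, which gave -0.035 for Apoa5 in Pctp-/- mice. With a library left out, values with MCD in WT ran from -0.015 to 0.35 for Apoa2, from -0.26 to 0.18 for Apoc1 and from -0.14 to 0.017 for Mttp, and in Pctp-/- mice from -0.030 to 0.094 for Apoa5 and from -0.17 to 0.019 for Mttp. Scaling to a common total, median-of-ratios scaling and quantile normalization also ended the call of Apob in WT (0.44, 0.43 and 0.51, adjusted p from 0.1 to 0.123).

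FPKM carries no count, so the counting error behind a level is unknown.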
